A study of Mus musculus with 33 samples.

Results

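This report describes 8 mouse genes whose products sit in the extracellular matrix or at the surface of fibroblasts, or act on the cytoskeleton, in RNA-seq of differentiating mouse embryonic stem (ES) cells. The genes are Bgn, Mgp, Thbs2, Postn, Itga11, Thy1, Cd109 and Arhgef28, which make 8 of the 24391 genes counted. They were named as candidate readouts of feeder fibroblast RNA in the day 0 libraries, and were selected on their level and their allelic share at day 0 against later days. That contrast is therefore described below without a test. The ES cells were hybrids of the strains CAST/Ei and 129/Sv/Jae. The lines were RepB, a genotype whose edit and edited allele the labels do not describe, and WT, labelled wild type. Each line gave a single polyA library on days 0, 5, 6, 7, 8 and 10, which makes 12 libraries without replicate cultures. Per the labels, cells of both lines had spent 3 days on irradiated mouse embryonic fibroblast feeders with LIF. The feeders were then removed, and embryoid bodies were kept for 4 days in suspension and plated on gelatin. The strain of the feeders is not given in the labels, which do not say either whether feeders were removed before the day 0 harvest.

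Fibroblasts lay down a collagen-rich matrix whose fibres are decorated by small proteoglycans and by matricellular proteins, which signal to cells without building the scaffold themselves. Irradiated fibroblasts no longer divide but stay alive and keep transcribing, and so support ES cells grown on top of them. Mesodermal cells that arise in embryoid bodies can switch on many of the same matrix genes. Where reads cover variants between strains, RNA of cells from a single inbred strain carries 1 allele, whereas RNA of hybrid cells can carry both. The allelic counts used here are named cas and mus by the authors and are read as CAST/Ei and 129/Sv/Jae. The cas share is the percentage of cas counts among the cas and mus counts of a gene.

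The promoters below show the start sites of 3 of the genes whose day 0 level stood above all later days, and of Postn, which followed another course. Sequences are from RefSeq (GRCm38.p6), from 250 bases before to 50 bases after the start, 5′ to 3′ along the gene. RefSeq promoters were matched for 5 of the 8 genes, with 6 promoters. Capitals mark the TATA box motif TATAAA, searched on both strands.
Bgn, chrX:73483351-73483650, plus strand: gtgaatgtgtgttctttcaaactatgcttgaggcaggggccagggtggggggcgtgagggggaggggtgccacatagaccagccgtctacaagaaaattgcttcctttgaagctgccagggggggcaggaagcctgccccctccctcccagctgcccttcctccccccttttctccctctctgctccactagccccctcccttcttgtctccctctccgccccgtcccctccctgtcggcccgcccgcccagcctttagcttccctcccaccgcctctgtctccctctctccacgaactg
Itga11, chr9:62677605-62677904, plus strand: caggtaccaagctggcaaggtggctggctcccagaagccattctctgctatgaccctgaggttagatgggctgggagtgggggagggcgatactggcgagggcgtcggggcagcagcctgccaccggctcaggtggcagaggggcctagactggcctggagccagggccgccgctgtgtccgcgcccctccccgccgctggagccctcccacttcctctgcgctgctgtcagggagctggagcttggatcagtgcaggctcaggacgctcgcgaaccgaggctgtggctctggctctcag
Thbs2, chr17:14694213-14694512, minus strand: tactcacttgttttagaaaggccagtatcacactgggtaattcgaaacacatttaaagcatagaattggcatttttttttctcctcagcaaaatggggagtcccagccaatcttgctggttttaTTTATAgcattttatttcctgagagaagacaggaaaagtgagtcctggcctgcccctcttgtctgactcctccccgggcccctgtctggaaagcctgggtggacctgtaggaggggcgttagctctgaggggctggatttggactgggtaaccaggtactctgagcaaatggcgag
Postn, chr3:54360857-54361156, plus strand: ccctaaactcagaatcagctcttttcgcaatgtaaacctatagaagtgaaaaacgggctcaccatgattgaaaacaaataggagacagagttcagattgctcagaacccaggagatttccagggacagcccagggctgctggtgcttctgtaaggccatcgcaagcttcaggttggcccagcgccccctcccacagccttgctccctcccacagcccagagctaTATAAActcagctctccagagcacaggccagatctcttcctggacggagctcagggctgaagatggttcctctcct
The motif lay on the gene's own strand 26 bases before the Postn start shown, and on the opposite strand, read as TTTATA, 126 bases before the start of Thbs2. Another Postn promoter, not shown here, lacked the motif. TATAAA was present in 2 of the 6 promoters, against 13.6% of the 32851 promoters of the table. GGAATG, the motif of TEAD factors, and TGANTCA, the motif of AP-1, were in 0 of the 6 promoters, against 14.7% and 7.81% of all promoters. These matches describe letters in a window and say nothing of which factors act there.

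Library totals ranged from 3594551 to 17773138 counts, of which 25.5% to 26.7% were allelic. The WT libraries were 2.07 to 3.35 times deeper than the RepB libraries of the same later day, and 1.11 times deeper at day 0. Levels are given in CPM, the count of a gene scaled to a common library total. The limit that a count of 0 allows was 3 counts, which is 0.169 to 0.835 CPM across libraries. Intervals are exact 95% intervals and cover counting error only. In bulk RNA, fewer cells of a type and less RNA per cell cannot be told apart. Over days 5 to 10 the cas allele was nearly absent from much of the genome. The median cas share of genes was under 5% on 14 of the 19 autosomes and between 40% and 60% on the other 5. Each gene is therefore read beside its 20 nearest informative neighbours, 10 on either side.

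At day 0, 5 of the 8 genes stood above every later library of their own line in both lines. They were Bgn, Mgp, Thbs2, Itga11 and Thy1, and Cd109 joined them in WT. Of the 13788 genes with a mean of at least 1 CPM, 23.4% stood above all later libraries in both lines (28.3% in RepB and 31.3% in WT). The median log2 ratio of day 0 over days 5 to 10 was 2.79 in RepB and 2.65 in WT over the 8 genes, against 0.02 in both lines over all 13788. Since this contrast chose the genes, nothing is read from these counts. Arhgef28 lay below all later libraries in RepB, where 25.2% of all genes did so, and Postn lay within the later range of both lines. On a per-length scale, CPM per kb of exon, Bgn was the most abundant of the 8 at day 0, with 95.9 in RepB and 108 in WT. Mgp followed with 73.2 in RepB and 80.2 in WT, and Thy1 with 70.6 in RepB and 61.8 in WT. The intervals of Mgp and Thy1 overlapped in RepB and were apart in WT. The other 5 genes lay between 2.22 (Arhgef28) and 3.55 (Itga11) CPM per kb in RepB, where each overlapped its neighbour in the order. In WT they lay between 2.19 (Arhgef28) and 5.20 (Cd109), and there Postn, Thbs2 and Arhgef28 overlapped their neighbours in the order.

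**Figure D1:**
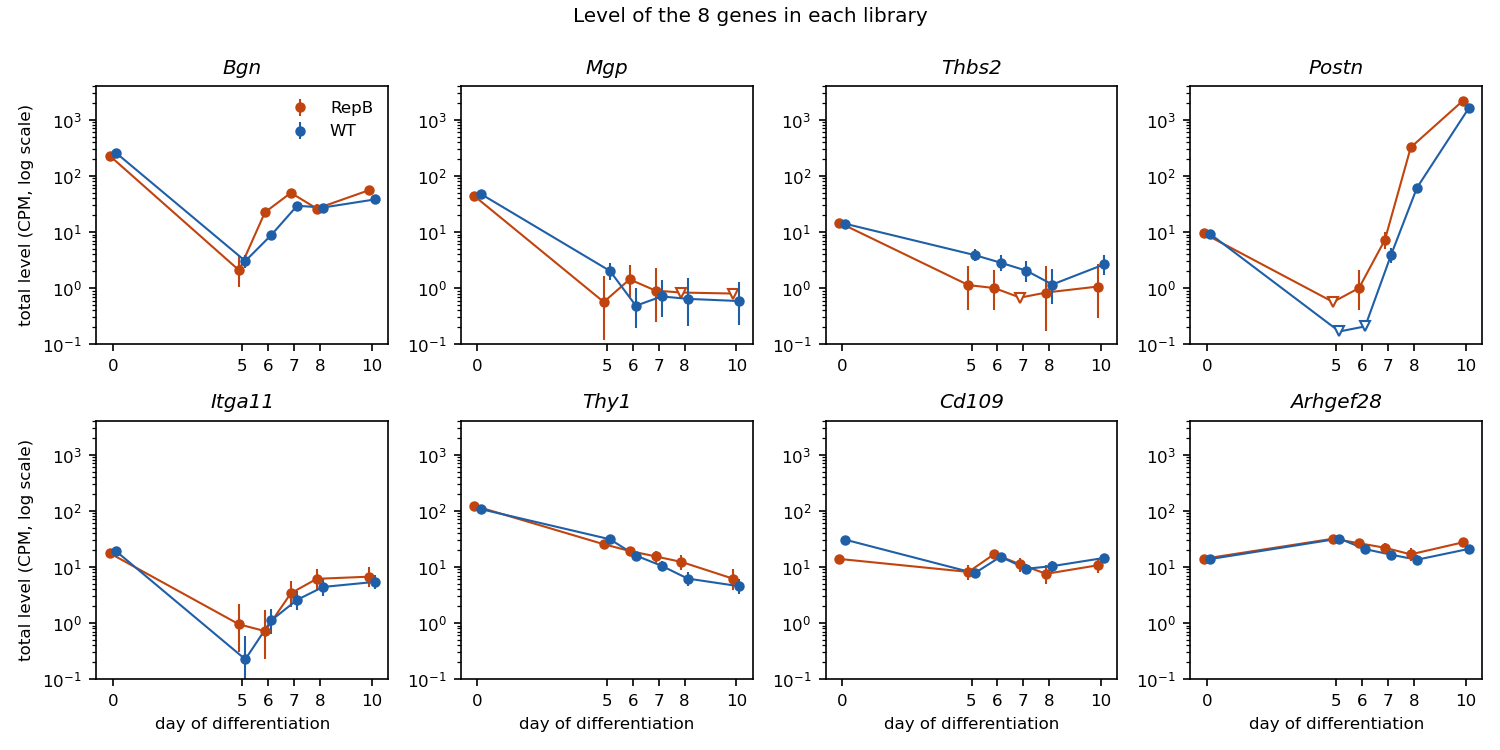
Total level of each gene in every library (y axis, CPM on a log scale) against day of differentiation (x axis), with RepB in orange and WT in blue. Bars are exact 95% counting intervals, and open triangles stand at the 3-count limit for libraries with under 3 counts. Mgp stood between 0.278 and 2.03 CPM after day 0, whereas Postn stood at 2155 CPM in RepB and 1608 CPM in WT at day 10.

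Bgn encodes biglycan, a small leucine-rich proteoglycan that binds collagen fibrils. It lies on the X chromosome (mm9, plus strand, first listed exon 70728974 to 70729101), with 2389 bases of exon. In RepB, Bgn had 229, 2.08, 22.5, 49.9, 26.2 and 55.3 CPM at days 0, 5, 6, 7, 8 and 10. In WT, Bgn had 259, 3.04, 8.81, 29.4, 27.3 and 38.0 CPM on the same days. Both lines were highest at day 0, lowest at day 5 and between these from day 6 on. The day 0 level was 7.35 times the later mean in RepB and 12.1 times it in WT.
Nearly all Bgn RNA of day 0 was of the mus allele. Pooled over days 5 to 10 the cas share was 68.6% (61.1 to 75.5, 172 allelic counts) in RepB and 91.8% (88.1 to 94.7, 293 counts) in WT. At day 0 it was 0.708% (0.260 to 1.54, 847 counts) in RepB and 0.438% (0.142 to 1.02, 1142 counts) in WT. By day, RepB had no allelic Bgn count at day 5 and stood at 52.6%, 62.3%, 65.6% and 89.8% at days 6, 7, 8 and 10. WT stood at 30.0% at day 5 on 10 allelic counts, then at 90.0%, 93.8%, 95.7% and 93.8%.
Few other X-linked genes had as low a cas share at day 0 as Bgn. Their median cas share at day 0 was 51.9% over 358 genes in RepB and 51.6% over 367 genes in WT. Of these, 2 genes in RepB and 0 in WT stood at or below Bgn. Over days 5 to 10 the 20 neighbours of Bgn had a median of 63.5% in RepB and 82.9% in WT, and the Bgn share lay above that median in each line. At day 0 the neighbours stood at 53.0% in RepB and 50.8% in WT. Split by allele, mus counts of Bgn gave 2.30 CPM over days 5 to 10 and 55.2 CPM at day 0 in RepB, and 0.410 CPM later and 67.3 CPM at day 0 in WT. Its cas counts gave 5.58 CPM later and 0.394 CPM at day 0 in RepB, and 5.42 CPM later and 0.296 CPM at day 0 in WT. The mus level was thus high at day 0 and the cas level high later, in both lines.

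**Figure D2:**
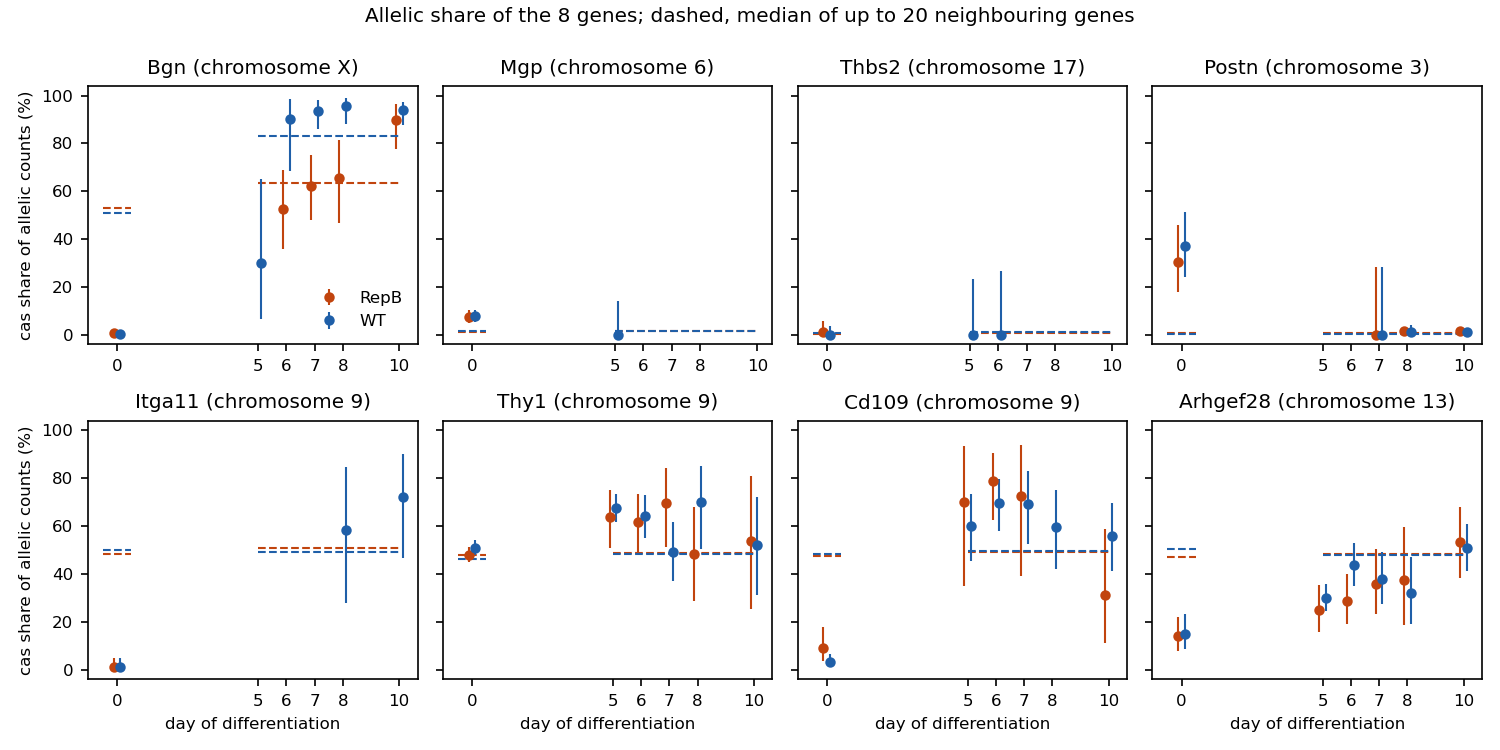
Cas share of allelic counts (y axis, percent) by day of differentiation (x axis), in RepB (orange) and WT (blue), where a library had at least 10 allelic counts of the gene. Bars are exact 95% intervals, and dashed lines are the median of the 20 neighbouring genes at day 0 and over days 5 to 10. Bgn, Itga11 and Cd109 stood under 10% at day 0, where the medians of their neighbours lay between 47.5% and 53.0%.

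Mgp encodes matrix Gla protein, an inhibitor of calcification of the matrix (chromosome 6, mm9, minus strand, first listed exon 136820956 to 136821309). In RepB, Mgp had 43.9, 0.566, 1.43, 0.903, 0.278 and 0.534 CPM at days 0, 5, 6, 7, 8 and 10. In WT, Mgp had 48.0, 2.03, 0.486, 0.712, 0.644 and 0.588 CPM. The later libraries held 1 to 10 counts in RepB and 5 to 36 in WT, so their levels are imprecise. Of the 8 genes Mgp had the largest excess at day 0 over the later mean, 59.0-fold in RepB and 53.9-fold in WT. All allelic counts of days 5 to 10 were mus, 11 in RepB and 32 in WT. At day 0 the cas share was 7.42% (5.02 to 10.5) in RepB and 7.68% (5.40 to 10.5) in WT. These intervals overlap those of the later days, which reach up to 28.5% in RepB and 10.9% in WT. The neighbours of Mgp had a median cas share under 2% in both lines and stages, and 15 of the 20 stood under 5% later. The mus allele of Mgp is thus also that of most of its region. At day 0 the neighbours' medians, 0.94% in RepB and 1.56% in WT, lay below the interval of Mgp in each line. Single neighbours reached up to 65.9% in RepB and 69.6% in WT.

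Thbs2 encodes thrombospondin 2, a matricellular protein known for limiting blood vessel growth (chromosome 17, mm9, minus strand, first listed exon 14802507 to 14804527). In RepB, Thbs2 had 14.8, 1.13, 1.00, 0.452, 0.835 and 1.07 CPM at days 0, 5, 6, 7, 8 and 10. In WT, Thbs2 had 14.0, 3.88, 2.85, 2.05, 1.16 and 2.65 CPM. Day 0 stood apart from the later days in both lines, and each later RepB library lay below the WT library of its day. The later RepB values rest on 2 to 7 counts each. No cas count was seen over days 5 to 10, among 7 allelic counts in RepB and 45 in WT. At day 0 the cas share was 1.09% (1 of 92 counts) in RepB, and WT had 0 of 95 counts, which allows a share of up to 3.81% by the exact interval. As for Mgp, the neighbouring genes were nearly all mus, with medians of 0.78% in RepB and 0.96% in WT later, so an allelic bias of day 0 could not be read at Thbs2.

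Postn encodes periostin, a matricellular protein of collagen-rich and mechanically loaded tissue (chromosome 3, mm9, plus strand, first listed exon 54165029 to 54165189). In RepB, Postn had 9.45, 0, 1.00, 7.23, 322 and 2155 CPM at days 0, 5, 6, 7, 8 and 10. In WT, Postn had 9.30, 0.0563, 0.139, 3.91, 61.6 and 1608 CPM. Its day 0 level was close between the lines and lay above days 5 to 7 and below days 8 and 10. The later days spread widely, and the log2 ratio of day 0 over later was -1.07 with an SD over days of 5.14 in RepB, and -0.16 with an SD of 4.88 in WT.
The allelic share of Postn ran opposite to that of Bgn. Over days 5 to 10 its cas share was 1.57% (1.20 to 2.03, 3689 counts) in RepB and 1.20% (0.948 to 1.49, 6606 counts) in WT, and its neighbours stood at 0.51% in RepB and 0.46% in WT. At day 0 the cas share was 30.4% (17.7 to 45.8, 14 of 46 counts) in RepB and 37.0% (24.3 to 51.3, 20 of 54 counts) in WT. Neighbouring genes stayed at medians of 0.60% in RepB and 0.26% in WT at day 0. The day 0 RNA of Postn thus held cas reads that its region otherwise nearly lacked, although mus reads were still the larger share.

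Itga11 encodes the alpha subunit of a collagen-binding integrin (chromosome 9, mm9, plus strand, first listed exon 62525662 to 62525803). In RepB, Itga11 had 17.5, 0.944, 0.717, 3.39, 6.12 and 6.67 CPM at days 0, 5, 6, 7, 8 and 10. In WT, Itga11 had 19.1, 0.225, 1.11, 2.58, 4.38 and 5.39 CPM. As with Bgn, both lines were highest at day 0, lowest at day 5 or 6 and higher again by day 10. Its cas share over days 5 to 10 was 70.4% (49.8 to 86.2) on 27 counts in RepB and 63.6% (47.8 to 77.6) on 44 counts in WT. A single cas count was seen at day 0 in each line, which gave a share of 0.909% (0.0230 to 4.96) in RepB and 0.893% (0.0226 to 4.87) in WT. The neighbours had medians of 50.8% in RepB and 49.2% in WT later, and of 48.2% in RepB and 49.8% in WT at day 0.

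Thy1 encodes a surface glycoprotein held by a lipid anchor, found on fibroblasts, neurons and T cells (chromosome 9, mm9, plus strand, first listed exon 43851467 to 43851559). In RepB, Thy1 had 122, 25.3, 19.2, 15.4, 12.2 and 6.14 CPM at days 0, 5, 6, 7, 8 and 10. In WT, Thy1 had 107, 31.0, 15.9, 10.4, 6.18 and 4.51 CPM. Its level was lower on each later day than on the one before, in both lines. Its RNA came from both alleles at either stage. The cas share over days 5 to 10 was 61.4% (54.4 to 68.0) in RepB and 63.7% (59.3 to 68.0) in WT. At day 0 it was 48.0% (44.9 to 51.1, 1019 counts) in RepB and 50.9% (47.7 to 54.0, 993 counts) in WT. Without day 5, the later day with most Thy1 counts in WT, the day 0 share of WT no longer lay apart, and the difference of day 0 less later was -8.73 points. Mus counts gave 3.20 CPM later and 34.8 CPM at day 0 in RepB, and cas counts gave 4.93 CPM later and 32.1 CPM at day 0. In WT, mus counts gave 2.60 CPM later and 28.9 CPM at day 0, and cas counts gave 4.41 CPM later and 29.9 CPM at day 0. Both alleles of Thy1 were thus high at day 0, unlike those of Bgn, Itga11 and Cd109.

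Cd109 encodes a surface protein held by a lipid anchor, of the alpha-2-macroglobulin family and known to bind TGF-beta (chromosome 9, mm9, plus strand, first listed exon 78463353 to 78463759). In RepB, Cd109 had 13.9, 8.12, 16.9, 11.1, 7.51 and 10.7 CPM at days 0, 5, 6, 7, 8 and 10. In WT, Cd109 had 30.5, 7.71, 15.1, 9.25, 10.3 and 14.4 CPM. The day 0 library stood above all later ones in WT, and within them in RepB. Later the cas share was 65.5% (54.3 to 75.5) in RepB and 63.4% (57.1 to 69.3) in WT, with neighbours at medians of 49.3% in RepB and 49.7% in WT. At day 0 it was 9.09% (3.73 to 17.8, 7 of 77 counts) in RepB and 3.15% (1.28 to 6.39, 7 of 222 counts) in WT. Both day 0 libraries held 7 cas counts, so that cas counts gave 0.460 CPM in RepB and 0.414 CPM in WT. Mus counts gave 4.60 CPM in RepB and 12.7 CPM in WT. The difference between the lines at day 0 was thus in mus counts.

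Arhgef28 encodes a guanine nucleotide exchange factor (chromosome 13, mm9, minus strand, first listed exon 98668550 to 98669771). In RepB, Arhgef28 had 13.9, 31.7, 26.4, 21.9, 16.7 and 27.2 CPM at days 0, 5, 6, 7, 8 and 10. In WT, Arhgef28 had 13.7, 32.0, 20.7, 16.5, 13.4 and 20.9 CPM. It was the only one of the 8 genes whose later mean exceeded day 0 in both lines without being set by 1 or 2 late days, by 1.78-fold in RepB and 1.51-fold in WT. Its cas share was 13.9%, 24.7%, 28.6%, 35.8%, 37.5% and 53.2% at days 0, 5, 6, 7, 8 and 10 in RepB, and 14.9%, 30.0%, 43.8%, 37.8%, 31.9% and 50.9% in WT. The day 0 intervals, on 101 counts each, were 7.79 to 22.2 in RepB and 8.56 to 23.3 in WT. The pooled later share, 33.7% in RepB and 37.4% in WT, lay below the neighbours' medians of 48.2% in RepB and 47.9% in WT. The mus bias of Arhgef28 was therefore present on later days too, and the share was nearest to that of its neighbours at day 10.

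As a description, the 95% interval of the cas share at day 0 lay below that of days 5 to 10 in both lines for 5 of the 8 genes, namely Bgn, Itga11, Cd109, Arhgef28 and Thy1. It lay above in both lines for Postn. Of the autosomal genes with at least 20 allelic counts at both stages in each line, 2.26% were lower at day 0 in both lines (3.78% in RepB and 5.84% in WT) and 1.37% were higher in both (2.46% in RepB and 3.8% in WT). Of the X-linked genes, with which Bgn belongs, 51.6% were lower at day 0 in both lines (52.2% in RepB and 84.4% in WT), and 0.59% were higher in each line. The autosomal shares include genes of the 14 autosomes with a median later cas share under 5%. Genes near 0% later have little room to be lower at day 0, so 2.26% is no like-for-like background for genes near balance later. The rule used this contrast, and nothing is read from the counts. Genes were ranked by the smaller of the 2 lines' drops among 10286 genes, autosomal and X-linked together. Bgn was 2nd, Itga11 3rd, Cd109 6th, Arhgef28 176th, Thy1 331st and Postn 10272nd. Mgp and Thbs2 had too few later counts in at least 1 line to be ranked. The 8 genes were therefore not alike in the values that chose them. Bgn, Itga11, Cd109 and Arhgef28 had cas shares of 0.438% to 14.9% at day 0 in regions where the neighbours' medians were near balance, and Thy1 was itself near balance. Postn had a higher cas share at day 0 than later. Mgp and Thbs2 lie in regions that are nearly all mus, and Mgp stood above its neighbours' medians at day 0. Whether the day 0 reads of these genes came from feeder cells was not tested.

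**Figure D3:**
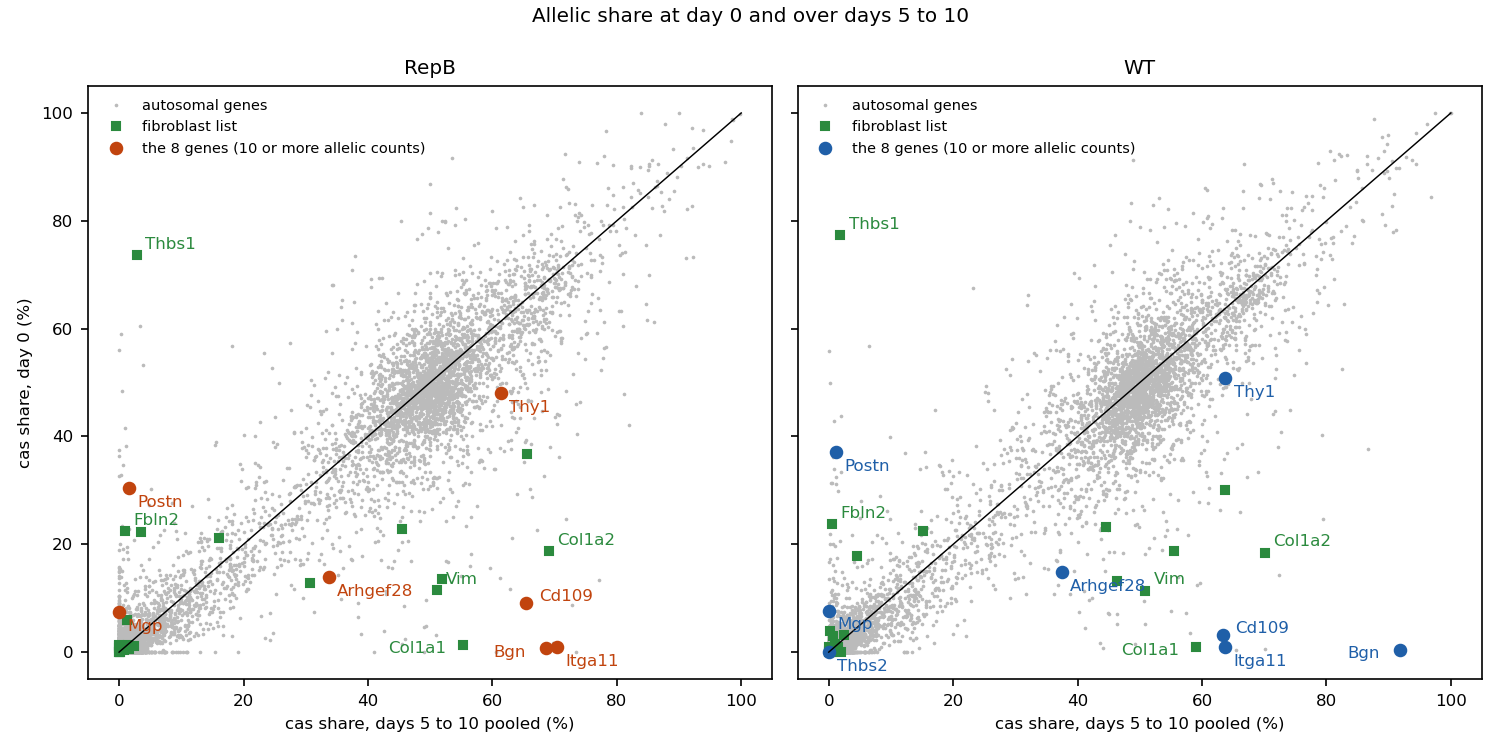
Cas share at day 0 (y axis, percent) against the share pooled over days 5 to 10 (x axis, percent), in RepB (left) and WT (right). Grey points are autosomal genes, green squares genes of the fibroblast list, large points those of the 8 genes with at least 10 later allelic counts, and the line marks equal shares. Bgn, Itga11 and Cd109 lie at the lower right, beside Col1a1. Postn, Thbs1 and Fbln2 lie at the left, above the line, with Thbs1 the highest of them.

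The day 0 libraries of the lines were set side by side, since the rule did not use that comparison. With 1 library per line it has no replicate check. The ratio of RepB over WT was 0.885 (0.846 to 0.926) for Bgn, 0.913 (0.823 to 1.01) for Mgp, 1.05 (0.873 to 1.27) for Thbs2 and 1.02 (0.805 to 1.28) for Postn. It was 0.917 (0.776 to 1.08) for Itga11, 1.14 (1.07 to 1.22) for Thy1 and 1.01 (0.837 to 1.23) for Arhgef28. Cd109 stood apart at 0.454 (0.385 to 0.534). On the log2 scale Cd109 was at -1.14, outside the 5th to 95th percentile of 10589 genes with at least 100 counts in both libraries, -0.48 to 0.37. The other 7 genes lay inside it.
Genes of the fibroblast list with at least 200 counts over both day 0 libraries had a median ratio of 1.03 over 28 genes, from 0.666 for Lox to 1.39 for Cdh11. Y-linked genes, whose presence or absence in the lines the labels do not give, had 44 counts in the RepB library and 69 in the WT library, a ratio of 0.707 (0.473 to 1.05).

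**Figure D4:**
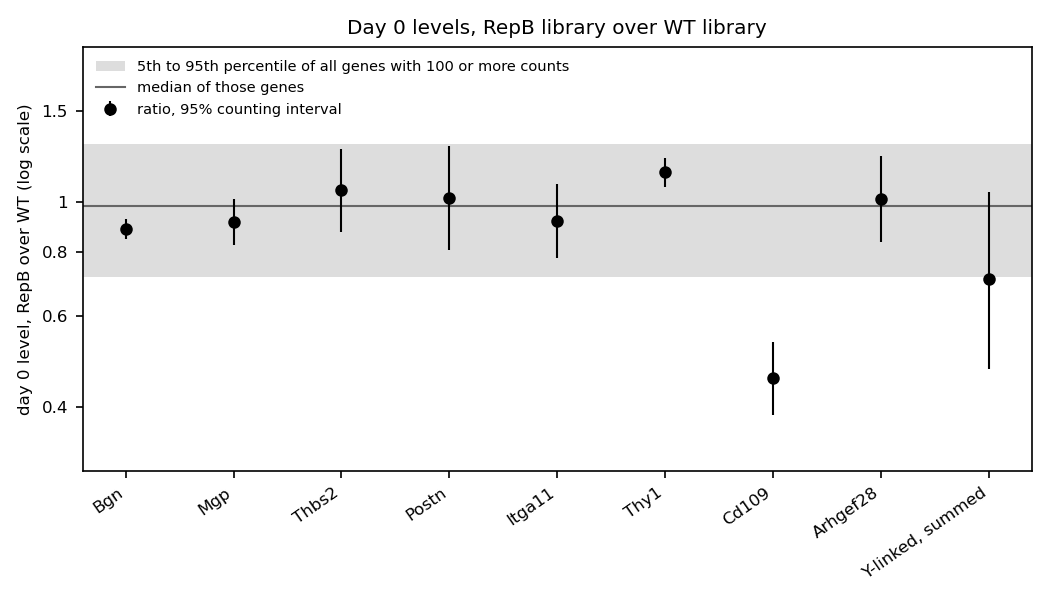
Ratio of the RepB over the WT day 0 library (y axis, log scale) for the 8 genes and the summed Y-linked genes (x axis). Points are ratios with 95% counting intervals, the grey band is the 5th to 95th percentile of 10589 genes, and Cd109 at 0.454 is the only one of the 8 genes below the band.

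The rule used the levels of days 5 to 10 as the side set against day 0. It did not use the change with day within days 5 to 10, which was tested with edgeR over all genes. Each line has a single time course, so a p here speaks of steadiness across days and not of other cultures. Of 12948 genes tested, 54.5% changed with day, 27.9% upward and 26.6% downward. Of the 8 genes, 6 passed the filter on low counts. Bgn, Itga11 and Postn rose and Thy1 fell. Per day, Bgn rose by 0.62 ± 0.17 on the log2 scale (SE, adjusted p = 0.0105), Itga11 by 0.72 ± 0.13 (adjusted p = 0.00111) and Postn by 2.88 ± 0.22 (adjusted p = 6.18e-06). Thy1 fell by 0.46 ± 0.05 per day (adjusted p = 6.89e-05). Cd109 (0.06, adjusted p = 0.514) and Arhgef28 (-0.07, adjusted p = 0.380) did not pass the test. Without day 10, Arhgef28 had a slope of -0.34 (adjusted p = 0.00150), which passed. Mgp and Thbs2 did not pass the filter. Without it, their slopes were -0.27 for Mgp (adjusted p = 0.142) and -0.09 for Thbs2 (adjusted p = 0.504).

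RepB and WT were compared over days 5 to 10 with same-day libraries set against each other. Of 12948 genes, 2.29% differed, 1.58% higher in RepB and 0.711% lower, and 0 of the 6 genes tested were among them. Postn averaged 497 ± 937 CPM in RepB and 335 ± 712 CPM in WT (SD, n = 5 days). It was higher in RepB on 4 of 5 days, with a log2 RepB/WT of 1.36 ± 0.33 (SE, adjusted p = 0.0622). It passed without the low-count filter (1.31, adjusted p = 0.000980), with limma-voom (1.35, adjusted p = 0.0492) and without day 10 (2.03, adjusted p = 0.0285). Bgn averaged 31.2 ± 21.7 CPM in RepB and 21.3 ± 14.8 CPM in WT, with a log2 RepB/WT of 0.59 ± 0.19 (adjusted p = 0.156), and passed without day 8 (0.75, adjusted p = 0.0291). The calls of both genes therefore depend on these choices.
The other members tested were Arhgef28 (log2 RepB/WT 0.31, adjusted p = 0.186), Thy1 (0.34, adjusted p = 0.401), Itga11 (0.42, adjusted p = 0.519) and Cd109 (-0.02, adjusted p = 0.967). Thbs2 averaged 0.898 ± 0.273 CPM in RepB and 2.52 ± 1.01 CPM in WT and was lower in RepB on all 5 days. Without the low-count filter its log2 RepB/WT was -1.51 ± 0.34 (adjusted p = 0.0102). Mgp had -0.13 in that fit (adjusted p = 0.949). The slopes of the lines could not be distinguished for any of the 6 genes (adjusted p = 1.00 each). By edgeR 0% of 12948 genes passed that test, as by DESeq2 (0 genes), with 200 genes at an unadjusted p under 0.05 by edgeR and 159 by DESeq2.

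The cas share over days 5 to 10 was compared between the lines on cas and mus counts, for the 5 members that averaged 20 or more allelic counts. Over all 9915 genes tested 2.32% differed, 0.353% higher in RepB and 1.97% lower. Bgn was the member that passed. Its log2 odds of cas were lower in RepB by 2.55 ± 0.55 (SE, log2 -2.55, adjusted p = 0.000270), and its share was lower in RepB on each of the 4 days with allelic counts in both lines. The X-linked genes as a whole lay in the same direction on those days. Their median share at days 6, 7, 8 and 10 was 65.9%, 70.5%, 74.2% and 73.1% in RepB, and 86.2%, 91.1%, 92.6% and 93.9% in WT. The difference at Bgn was not tested against that of the other X-linked genes. The call held without each day in turn, with adjusted p from 0.000110 to 0.0398. It was lost when the allele-by-day term was left out (log2 -2.21, adjusted p = 0.0552). Postn (0.38), Thy1 (-0.06), Cd109 (-0.00) and Arhgef28 (-0.29) had adjusted p = 1.00 each.

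The other genes of fibroblasts were read from a list of 40, among them the collagens, lysyl oxidases and mesenchymal transcription factors. At day 0 all 40 had counts in both lines. Their summed level over days 0, 5, 6, 7, 8 and 10 was 6314, 1950, 5333, 10360, 12171 and 28519 CPM in RepB, and 6296, 2110, 5319, 10435, 9102 and 22155 CPM in WT. Thus the sum of the list was lowest at day 5 and highest at day 10, as Postn was. Abundant genes weigh most in this sum. Fn1 alone had 3015 CPM at day 0 and 6065 CPM at day 10 in RepB, and 3083 and 5209 CPM in WT. Of the 34 list genes with a mean of at least 1 CPM, 6 stood above all later libraries at day 0 in both lines and 4 below, beside 23.4% and 19.6% of all such genes. Among the 6 were Lox, Prrx1, Ddr2, S100a4 and Timp1, and the 4 were Cdh11, Cyr61, Lgals1 and Mmp2. Over all 40 genes of the list, the median log2 ratio of day 0 over later was 0.68 in RepB and 0.49 in WT. Lox, which cross-links collagen, had at most 10.4 CPM later and 67.5 CPM at day 0 in RepB, and at most 5.98 CPM later and 101 CPM at day 0 in WT. Of the 32 list genes tested over days 5 to 10, 28 rose with day and 0 fell, beside 27.9% and 26.6% of all genes, and 0 differed between RepB and WT, beside 2.29% of all genes.
The allelic shares of the list moved in both directions. Of 26 genes with enough counts, 7 were lower at day 0 in both lines (among them Col1a1, Col1a2, Col5a1, Loxl1, Vim and Timp1) and 4 were higher (Thbs1, Fbln2, Col6a3 and Sparc). Of all autosomal genes 2.26% were lower and 1.37% higher in both lines, and of the X-linked genes, to which Timp1 belongs, 51.6% were lower. Many autosomal genes were near 0% later and had little room to be lower, so 2.26% is no like-for-like background here. Col1a1, a chain of the main fibrillar collagen, had a cas share of 55.3% later and 1.36% at day 0 in RepB, and of 59.0% later and 1.02% at day 0 in WT. Vim, an intermediate filament of mesenchymal cells, had 51.2% later and 11.5% at day 0 in RepB, and 50.9% later and 11.4% at day 0 in WT. Thbs1, a relative of Thbs2, went the other way, with 2.89% later and 73.6% at day 0 in RepB, and 1.84% later and 77.4% at day 0 in WT. Fbln2 had 0.91% later and 22.5% at day 0 in RepB, and 0.52% later and 23.7% at day 0 in WT. The neighbours of Thbs1 and Fbln2 stood at medians of 0% to 1.07% in both lines and stages, so that these genes resemble Postn in their shares, as Col1a1 resembles Bgn and Itga11.

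Other markers that moved with day 0 are given as values. Over the 5 later libraries the 7 listed Y-linked genes together had 1 count in RepB and 4 in WT. At day 0, Ddx3y, Eif2s3y, Kdm5d and Uty had 23, 7, 6 and 8 counts in RepB and 32, 7, 17 and 13 in WT. Usp9y, Zfy1 and Zfy2 were at 0 in every library. Genes of naive pluripotency also changed between these stages, with 9 of 11 above all later libraries in both lines, beside 23.4% of all genes. The interval of the cas share at day 0 lay below the later one in both lines for 5 of the 11, beside 2.26% of autosomal genes. It lay above in both lines for 1 of them, Dppa5a, beside 1.37% of autosomal genes. Here too, many autosomal genes were near 0% later and had little room to be lower, so 2.26% is no like-for-like background. Dppa5a had 35.9% later and 43.1% at day 0 in RepB, and 36.7% later and 45.7% at day 0 in WT. Klf4, a factor of naive cells, had 27.4% later and 18.6% at day 0 in RepB, and 26.0% later and 17.8% at day 0 in WT. Their summed level was 617 to 3750 CPM later and 8247 CPM at day 0 in RepB, and 433 to 2857 CPM later and 7439 CPM at day 0 in WT. The part of these cell types in the values of the 8 genes was not tested.

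Apart from the 8 themselves, the genes most like their mean profile, by Pearson r of log2(CPM + 0.5) over the 12 libraries, were A2m (0.978), Thbd (0.977), Pvr (0.976), Timp1 (0.975), Fosb (0.974), Arrdc4 (0.972), Klf11 (0.970), Dpysl3 (0.970), Lox (0.967) and Serpina3n (0.966). These libraries share the day 0 contrast that chose the 8 genes, and r describes that contrast above all. A2m, a secreted protease inhibitor, had a mean of 8.03 CPM later and 71.9 CPM at day 0 in RepB, and of 7.70 CPM later and 129 CPM at day 0 in WT. Its day 0 ratio of RepB over WT was 0.559 (0.519 to 0.601), in the direction of Cd109 and Lox. Among the 8 themselves, r with the mean profile was highest for Mgp (0.90) and Bgn (0.84) and lowest for Postn (0.21) and Arhgef28 (-0.49).
Leaving out the 8 genes, those with the largest drop of the cas share at day 0, by the smaller of the drops of the lines, were Cav1 (69.5 points), Col12a1 (60.6), Cemip (58.1), Mum1l1 (54.7), Col1a1 (54.0), Col1a2 (50.3), Lrrc32 (50.1), Ushbp1 (49.0), Timp2 (47.4) and Plat (46.8). Of these, Mum1l1 is X-linked. Its cas share was 89.1% later and 34.4% at day 0 in RepB, and 97.9% later and 42.1% at day 0 in WT. Cav1 encodes the coat protein of caveolae, and its cas share was 73.5% later and 0% at day 0 in RepB, and 70.1% later and 0.606% at day 0 in WT. Its level hardly differed between the stages, at 14.2 CPM later and 15.6 CPM at day 0 in RepB, and 14.3 CPM later and 17.8 CPM at day 0 in WT. Among the 8 genes, Arhgef28 likewise had a lower cas share at day 0 without a higher level, and Thy1 had a higher level with both alleles present.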

How the data were processed

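PolyA RNA of 12 libraries was analysed, and the other 21 of the 33 samples were not analysed here. The authors deposited whole-number counts per gene, in total and assigned to the cas and mus alleles, without normalization. Another column, per the file headers, gives exon length in bases. The submitters' processing notes list mm9, TopHat, Novoalign, SAMtools, bedtools and featureCounts, without roles. The library kit is directional per the labels' protocols, but the strand setting of the counting is not given in the sources used here, so genes that overlap on opposite strands are uncertain. Another 6 count columns, of a day with no sample here, were not used.

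From these counts CPM, log2 ratios with a pseudocount of 0.5 CPM and cas shares were computed, a share per library from at least 10 allelic counts and pooled from at least 20. Intervals are exact (Clopper-Pearson or Poisson, 95%), and they and the 3-count limit cover counting error only. Tests used edgeR 4.0.16 (quasi-likelihood, TMM, filterByExpr, R 4.3.3) on the 10 libraries of days 5 to 10, with Benjamini-Hochberg adjustment over all genes and a threshold of 0.05. The tests of RepB against WT had day as a block, since same-day libraries share their day in the labels. The allele test took genes that averaged 20 or more allelic counts. Each SE of an edgeR test was derived from its F statistic, as the absolute log2 value over the square root of F. The fits were tested on simulated data. Alternatives were DESeq2 1.42.0, limma-voom 3.58.1, other scaling, no filter, other pseudocounts and leaving out each day.

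The 8 genes are always named. The others are the 10 most alike in level, the 10 with the largest drop in cas share at day 0, and the most abundant or tested genes of 9 lists (fibroblast and feeder, Y-linked, smooth muscle, naive pluripotency, early mesoderm, cardiac muscle, endothelium, neural, and matrix partners of the 8). The genes and lists were chosen with earlier results of these data known. Genes of the fibroblast list beyond these, and Cav1, A2m, Klf4, Dppa5a, Aspn, Dcn, Fmod and Emcn for their values, were picked after values were seen. A gene of the fibroblast list is counted but not reported here by name. The limit of a mean of at least 1 CPM on the counts of the fibroblast list was set after values were seen.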

Additional observations from a re-analysis of the deposited data

How the results depend on the processing

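The number of genes that differed between RepB and WT over days 5 to 10 was 296 by edgeR, and it depended on the settings. It was 626 without the low-count filter, 300 with other size factors, 345 by DESeq2 and 336 by limma-voom. Leaving out each day in turn gave 10 (without day 7) to 607 (without day 8). Without the day as a replicate block it was 0 by edgeR, with 240 genes at an unadjusted p under 0.05. The counts of the slope test ranged from 5094 to 7443 over days left out, and those of the slope difference stayed at 0. The count of genes differing in cas share was 230, and 163 without the replicate block, where Bgn lost its call (log2 -2.21, adjusted p = 0.0552). The ratio of day 0 over later reversed for Postn alone among the 8 genes. In WT it was 0.46 with a pseudocount of 0.1 CPM, and it ranged from -1.23 to 1.64 over days left out, with 0.47 without day 8. In RepB it ranged from -2.42 to 0.60. The number of the 8 genes whose cas share was lower at day 0 in both lines was 4 or 5 under every setting run. Without day 5, Thy1 in WT was the gene lost. Itga11 dropped out where later shares were averaged by library rather than pooled. No later RepB library held 10 allelic counts of Itga11, and no later WT library held 20. The causes were not tested. In the RepB libraries of days 5 to 10, Mgp, Thbs2 and Itga11 rested on 1 to 25 counts each and Postn on 0 to 7 counts at days 5 and 6. Allelic counts, 25.5% to 26.7% of all, limit the shares further.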

Other observations

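Lists of other cell types moved with day as well. Genes of smooth muscle summed to 469 to 2993 CPM later and 172 CPM at day 0 in RepB, and to 469 to 2812 CPM later and 153 CPM at day 0 in WT. Acta2, smooth muscle actin, had 2069 CPM in RepB and 1931 CPM in WT at day 10, when Postn was highest. Tagln, which encodes an actin-binding protein, had a cas share of 45.5% later and 1.43% at day 0 in RepB, and of 49.2% later and 1.49% at day 0 in WT. Of the 6 smooth muscle genes tested, Des, Acta2, Tpm2 and Tagln rose with day and Cnn1 fell, beside 27.9% and 26.6% of all genes. Cardiac muscle genes summed to 15.8 to 210 CPM later and 6.89 CPM at day 0 in RepB, and to 14.2 to 469 CPM later and 6.57 CPM at day 0 in WT. All 4 of the tested cardiac genes rose with day, beside 27.9% of all genes. Myh7, a heavy chain of cardiac myosin, was lower in RepB, beside 0.711% of all genes.

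Endothelial genes summed to 56.2 to 405 CPM later and 205 CPM at day 0 in RepB, and to 30.2 to 293 CPM later and 220 CPM at day 0 in WT. Most of the day 0 sum was Pecam1, with 173 CPM in RepB and 194 CPM in WT, and the rest of the list went the other way. Cdh5, Tie1 and Emcn had at most 1.36 CPM at day 0 in either line. At day 10 they had 136, 62.2 and 27.8 CPM in RepB, and 83.5, 44.4 and 13.3 CPM in WT. Tek had 30.1 CPM at day 0 and 105 CPM at day 10 in RepB, and 23.3 and 101 CPM in WT. Of the 3 endothelial genes tested, Pecam1 was higher in RepB over days 5 to 10, and Tek and Cdh5 rose with day. Among all genes, 1.58% were higher in RepB and 27.9% rose with day. Early mesoderm genes were highest at day 6, with 1579 CPM in RepB and 1488 CPM in WT. Of the 6 tested, T and Eomes fell over days 5 to 10, beside 26.6% of all genes. Neural genes summed to 92.1 to 360 CPM later and 262 CPM at day 0 in RepB, and to 89.3 to 396 CPM later and 207 CPM at day 0 in WT. Of the 5 neural genes tested, Map2, Pax6 and Sox1 were lower in RepB, beside 0.711% of all genes. Of the 11 naive pluripotency genes 6 were higher in RepB, beside 1.58% of all genes tested. Of the 23 matrix partners of the 8 genes, 17 were tested, 13 rose with day and 0 fell, beside 27.9% and 26.6% of all genes, and Tgfbi was higher in RepB. Aspn, a small proteoglycan related to biglycan, was at 0 CPM at days 5 and 10 in both lines, and at 5.32 CPM in RepB and 4.09 CPM in WT at day 0. Dcn and Fmod, of the same list, went the other way. In RepB, Dcn had 1.25 CPM at day 0 and 63.0 CPM at day 10, and Fmod 0.657 and 59.3 CPM. In WT, Dcn had 2.25 and 32.1 CPM on these days, and Fmod 0.592 and 32.4 CPM.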
